A study of Mus musculus and Homo sapiens with 9 samples.

Results

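5830411N06Rik, Arhgap29, Myo10 and Atp1b1 were 4 genes with lower counts in splenic CD3+ T cells of Irf2bp2 knockout mice than in those of control mice, out of the 43432 rows of the mouse count table. They were chosen by these counts: they were the genes with the largest falls, Irf2bp2 itself aside, among those called lower that had a mean of at least 10 CPM (counts scaled to the size of the library) over the 5 libraries. The difference between knockout and control is therefore given for them as a description, with no test. Libraries were made from CD3+ T cells sorted magnetically from spleen, with 2 from mice that carry Vav-iCre+/- and Irf2bp2fl/fl (knockout) and 3 from controls, which the labels call wild type and the study's methods Vav-iCre-/-;Irf2bp2fl/fl; the labels give no age for these mice. Vav-iCre is active across the blood lineage and not in T cells alone, so other blood cells of these mice also lack Irf2bp2. A second table held 4 libraries of J.gamma1, a derivative of the Jurkat T cell leukemia line, with 2 of cells carrying a control hairpin RNA (shNC) and 2 of cells carrying a hairpin against IRF2BP2 (shIRF2BP2). It was used here to follow the human counterparts of the 4 genes.

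The products of the 4 genes act at the cell surface and on the actin cytoskeleton. Atp1b1 encodes the beta1 subunit of the Na,K-ATPase, the pump that moves sodium out of the cell and potassium into it; the alpha subunit carries the ions and splits ATP, and the beta subunit brings the alpha subunit to the plasma membrane. Arhgap29 encodes a GTPase-activating protein that switches off the small GTPase RhoA, and in endothelial cells it acts downstream of the GTPase Rap1 together with the adaptors Rasip1 and Radil. Myo10 encodes an unconventional myosin that walks along bundled actin to the tips of filopodia, the thin protrusions with which cells probe their surroundings. 5830411N06Rik, also known as Scart2, encodes a membrane protein of the scavenger receptor cysteine-rich family, to which Cd5 and Cd6 of T cells belong, and it is known as a marker of gamma-delta T cells. Irf2bp2 encodes a nuclear cofactor of transcription.

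The 4 genes lie on 4 chromosomes of the mm10 build. 5830411N06Rik (ENSMUSG00000054672) spans chromosome 7 from 140247284 to 140300736 on the plus strand. Arhgap29 (ENSMUSG00000039831) spans chromosome 3 from 121952541 to 122016753 on the plus strand. Myo10 (ENSMUSG00000022272) spans chromosome 15 from 25622525 to 25813673 on the plus strand. Atp1b1 (ENSMUSG00000026576) spans chromosome 1 from 164437109 to 164458355 on the minus strand. All are annotated as protein-coding.

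As a description, the 250 bases before the first RefSeq start of each of the 4 genes (GRCm38.p6, the assembly of mm10) are shown 5′ to 3′ on the strand of the gene. Letters in capitals mark the GC box GGGCGG, read on both strands, and overlapping matches were counted one by one. The RUNX-type word TGTGGT and the ETS-type word CCGGAA were searched in the same way, and neither was found in these 4 windows. The window of the second RefSeq start of Arhgap29, not shown, held 1 RUNX-type word. The windows are chr7:140247051-140247300 (plus strand) for 5830411N06Rik, chr3:121952979-121953228 (plus strand) for Arhgap29, chr15:25622300-25622549 (plus strand) for Myo10 and chr1:164458356-164458605 (minus strand) for Atp1b1.
5830411N06Rik: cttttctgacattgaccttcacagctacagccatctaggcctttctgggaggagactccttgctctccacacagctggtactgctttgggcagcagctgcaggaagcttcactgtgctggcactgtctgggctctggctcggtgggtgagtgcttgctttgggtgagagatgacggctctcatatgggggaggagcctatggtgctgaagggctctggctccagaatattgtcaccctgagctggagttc
Arhgap29: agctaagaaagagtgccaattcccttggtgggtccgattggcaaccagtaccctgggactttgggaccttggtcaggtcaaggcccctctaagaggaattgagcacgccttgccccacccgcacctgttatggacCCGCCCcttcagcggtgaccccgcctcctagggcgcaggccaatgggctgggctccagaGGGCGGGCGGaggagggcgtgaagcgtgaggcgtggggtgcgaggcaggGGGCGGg
Myo10: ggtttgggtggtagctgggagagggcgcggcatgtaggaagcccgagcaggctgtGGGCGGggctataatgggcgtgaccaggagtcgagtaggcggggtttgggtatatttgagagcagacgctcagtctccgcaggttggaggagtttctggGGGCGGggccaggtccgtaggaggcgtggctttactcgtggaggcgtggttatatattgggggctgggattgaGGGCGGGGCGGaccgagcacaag
Atp1b1: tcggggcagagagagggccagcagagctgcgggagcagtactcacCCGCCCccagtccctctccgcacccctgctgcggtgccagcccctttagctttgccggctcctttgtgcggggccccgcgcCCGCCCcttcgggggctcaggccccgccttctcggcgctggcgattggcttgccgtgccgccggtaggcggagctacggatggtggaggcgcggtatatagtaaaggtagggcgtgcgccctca

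Arhgap29 and Myo10 had 4 GC boxes each in these windows and Atp1b1 had 2, whereas 5830411N06Rik had 0. Of 32851 RefSeq promoters of the same length, 32.7% held a GC box, 14.0% the RUNX-type word and 12.0% the ETS-type word. The window of 5830411N06Rik was 56.0% G or C and had an observed-to-expected ratio of CpG of 0.103. Those of Arhgap29, Myo10 and Atp1b1 were 65.6%, 62.8% and 70.4% G or C, with ratios of 0.53, 0.88 and 0.775. The medians over all promoters were 52.4% and 0.373, so the window of 5830411N06Rik was poorer in CpG than the median promoter and the other three were richer. These values depended on the start used. The window of the second RefSeq start of Arhgap29 had 3 GC boxes and a ratio of 0.282. That of the second start of Myo10 had 0 GC boxes, 46.0% G or C and a ratio of 0.306. Both ratios were below the median. A match to such a word describes the sequence only and does not show that a protein binds there.

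The libraries held between 16668577 (control replicate 3) and 37177523 counts, and 15350 genes passed the filter of edgeR on low counts, all 4 genes among them. Irf2bp2 checked the labels, with counts of 4145, 4594 and 1915 in controls and of 0 in both knockout libraries. Over all genes tested, edgeR's quasi-likelihood test called 17 genes lower (0.111%) and 379 higher (2.47%), where a call needed a log2 fold change of 1 or more in either direction besides an adjusted p under 0.05. These counts moved with single libraries: without control replicate 1, knockout replicate 1 or knockout replicate 2, 1, 3 and 1 genes were called lower. Without control replicate 2 or 3, 35 and 32 were. The labels do not state that the libraries came from separate mice, so the p-values measure the spread between these libraries, which may be technical. All values below are CPM on TMM-scaled library sizes unless they are called RPKM, which are CPM per kilobase of exon.

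5830411N06Rik had the largest fall of the 4. It measured 13.1, 19.9 and 10.7 CPM in control replicates 1, 2 and 3, from 485, 721 and 171 counts, and 3.47 and 3.38 CPM in knockout replicates 1 and 2, from 133 and 120 counts. All control libraries lay above both knockout libraries, and the lowest control was 3.08 times the highest knockout. The means were 14.6 ± 4.80 CPM (SD, n = 3) and 3.43 ± 0.0656 CPM (SD, n = 2), a ratio of 4.26 and a log2 fold change of -2.09 (standard error 0.330). Its control libraries were also the most uneven, with the highest 1.86 times the lowest, whereas the knockout libraries differed 1.03-fold. In bulk RNA, fewer cells that express a gene and less RNA of it per cell cannot be told apart, here and for the genes that follow.

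Arhgap29 measured 11.9, 13.6 and 16.8 CPM in the controls (441, 492 and 269 counts) and 4.60 and 5.04 CPM in the knockout (176 and 179 counts). The groups did not overlap, and the lowest control was 2.36 times the highest knockout. The means were 14.1 ± 2.50 CPM (SD, n = 3) and 4.82 ± 0.316 CPM (SD, n = 2), a ratio of 2.93 and a log2 fold change of -1.55 (standard error 0.247).

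Myo10 measured 19.4, 16.2 and 23.8 CPM in the controls (718, 584 and 380 counts) and 7.86 and 6.45 CPM in the knockout (301 and 229 counts). Again each control lay above each knockout library, by at least 2.06-fold. The means were 19.8 ± 3.83 CPM (SD, n = 3) and 7.15 ± 0.996 CPM (SD, n = 2), a ratio of 2.76 and a log2 fold change of -1.46 (standard error 0.242).

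Atp1b1 was the most abundant of the 4. It measured 128, 147 and 102 CPM in the controls (4732, 5297 and 1638 counts) and 57.3 and 49.8 CPM in the knockout (2196 and 1769 counts). The lowest control was 1.79 times the highest knockout, the narrowest gap of the 4. The means were 126 ± 22.1 CPM (SD, n = 3) and 53.6 ± 5.31 CPM (SD, n = 2), a ratio of 2.34 and a log2 fold change of -1.23 (standard error 0.184).

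**Figure D1:**
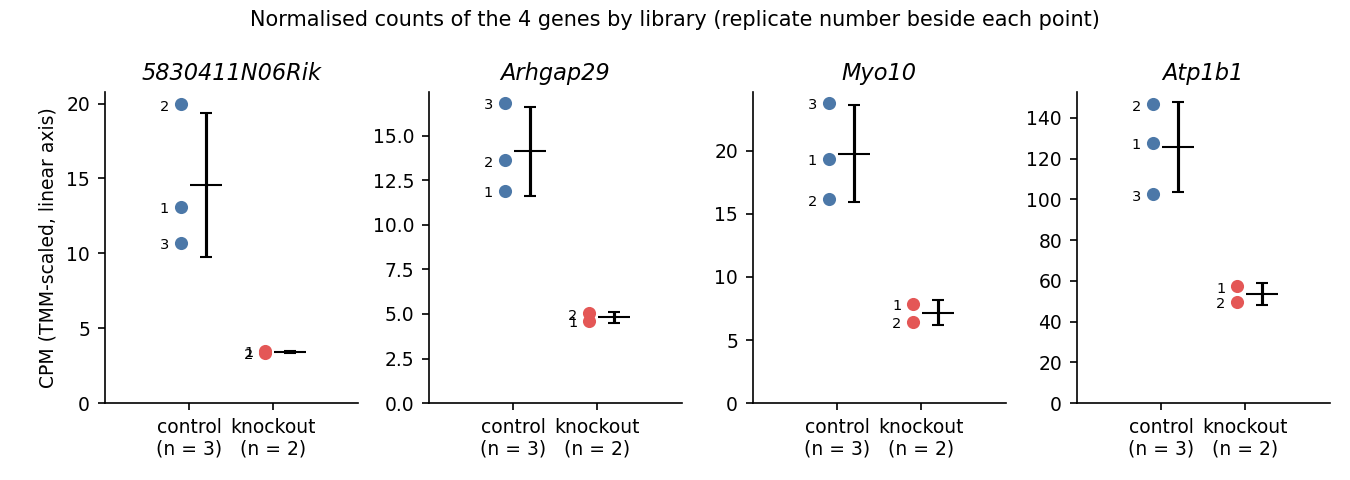
Normalised counts (CPM on TMM-scaled library sizes, linear axes from 0) of the 4 genes in each control (blue, n = 3) and knockout (red, n = 2) library, numbered by replicate, with the group mean and SD as black bars. In each panel both knockout libraries lie below all control libraries; the genes were chosen for this difference.

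Separation of the groups was common in this small design: in 17.8% of the genes tested, both knockout libraries lay below all control libraries. Between the controls, the SDs of log2 CPM were 0.46 for 5830411N06Rik, 0.25 for Arhgap29, 0.28 for Myo10 and 0.26 for Atp1b1, each above the median of 0.20 over genes of at least 10 CPM.

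Per kilobase of exon, Atp1b1 stood above the other three in both groups, with 33.3 to 47.6 RPKM in controls and 16.2 to 18.6 RPKM in the knockout. In controls, the RPKM values of 5830411N06Rik (1.93 to 3.61), Myo10 (1.60 to 2.35) and Arhgap29 (1.35 to 1.91) overlapped between neighbours in this order. In the knockout, the RPKM values were 0.637 to 0.776 for Myo10, 0.611 to 0.628 for 5830411N06Rik and 0.521 to 0.572 for Arhgap29, which did not overlap with n = 2 each.

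The genes also differed in which control library was highest. 5830411N06Rik and Atp1b1 were highest in control replicate 2 and lowest in control replicate 3, whereas Arhgap29 and Myo10 were highest in control replicate 3. The likeness of 2 profiles was measured over the 5 libraries as the root mean square difference of log2 CPM, each centred on its own mean. Among 9100 genes with a mean of at least 10 CPM over the libraries, Myo10 was the nearest to Arhgap29 (0.20), ahead of Gtf2ird1 (0.20) and Tesc (0.27). The nearest to Myo10 were Synj2 (0.12), which encodes a phosphoinositide phosphatase, Pdlim4 (0.16), which encodes an actin-associated protein, and Ndrg2 (0.16). Those nearest to Atp1b1 were Xkrx (0.10), Tnfaip8l2 (0.15) and Ramp1 (0.16). 5830411N06Rik had no gene as near: Atp1b1 (0.42), Xkrx (0.42) and Arhgap29 (0.46) came first. The median distance to all genes was 1.03 for 5830411N06Rik, 0.76 for Arhgap29, 0.73 for Myo10 and 0.63 for Atp1b1. These distances are descriptions over 5 libraries of unequal depth, with control replicate 3 the shallowest. The genes were chosen for their fall over these same libraries. Nearness among them, and to other genes that fell, therefore follows in part from the choice.

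Genes just outside the choice were close in value. 5830411N06Rik (10.1 CPM over all 5 libraries) and Arhgap29 (10.4) were just inside the level required, and Ampd1 (9.76), Tmem108 (9.70) and Fam174b (7.85) were just outside it. Their log2 fold changes were -1.40, -1.46 and -1.49. Ampd1 encodes a muscle-type AMP deaminase. By size of fall, Atp1b1 (-1.23) was just inside and Tesc (-1.10) and Rras2 (-1.04) were just outside. Tesc, which encodes the calcium-binding protein tescalcin, had means of 27.3 and 12.7 CPM in control and knockout, and Rras2, which encodes a GTPase of the Ras family, had 85.2 and 41.5 CPM. The other genes called lower were at lower levels, with at most 6.64 CPM in controls: Hist2h2aa1, Igkv11-125, Fbln1, Drc1, A530021J07Rik, Dmbt1 and Adh1. Some genes met the level, fell by more than Atp1b1 and missed only the adjusted p. Among them were Synj2 (-1.40, edgeR adjusted p = 0.057), Xkrx (-1.24, edgeR adjusted p = 0.083) and Pdlim4 (-1.31, edgeR adjusted p = 0.099).

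Atp1b1 was set beside the other subunits of its pump. Of 8 other genes of the sodium pump and its relatives that passed the filter, 0 were called lower and 1 higher, and 9 more did not pass. Their median log2 fold change was -0.33, with 5 below 0, against -0.018 over all genes, of which 7996 of 15350 were below 0. Over all genes tested, 0.111% were called lower and 2.47% higher. A count of 0 called lower therefore says little in lists of this size, here and in the lists that follow. In the pump list, the gene called higher was Atp1b2, which encodes the beta2 subunit. It measured 6.69, 12.2 and 3.50 CPM in the controls and 46.0 and 44.0 CPM in the knockout. Both knockout libraries were thus well above all controls (log2 fold change 2.57, standard error 0.444, edgeR adjusted p = 0.036). Atp1b3, which encodes the beta3 subunit, was at 785 ± 81.9 CPM (SD, n = 3) without and 600 ± 26.3 CPM (SD, n = 2) with the knockout, and was not called (-0.39, edgeR adjusted p = 0.26). Fxyd5, which encodes a small regulator of the pump, was not called either (445 and 298 CPM, -0.58, edgeR adjusted p = 0.067).

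Atp1b3 made up most of the beta subunit RNA in each library. Of the summed RPKM of Atp1b1, Atp1b2 and Atp1b3, Atp1b1 took 10.4%, 12.1% and 10.3% in the controls and 6.82% and 5.66% in the knockout. Atp1b2 took 0.412%, 0.764% and 0.265% in the controls and 4.13% and 3.77% in the knockout, while Atp1b3 stayed between 87.1% and 90.6% in all 5 libraries. The sum itself was 324 to 398 RPKM in the controls and 273 to 286 RPKM in the knockout.

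**Figure D2:**
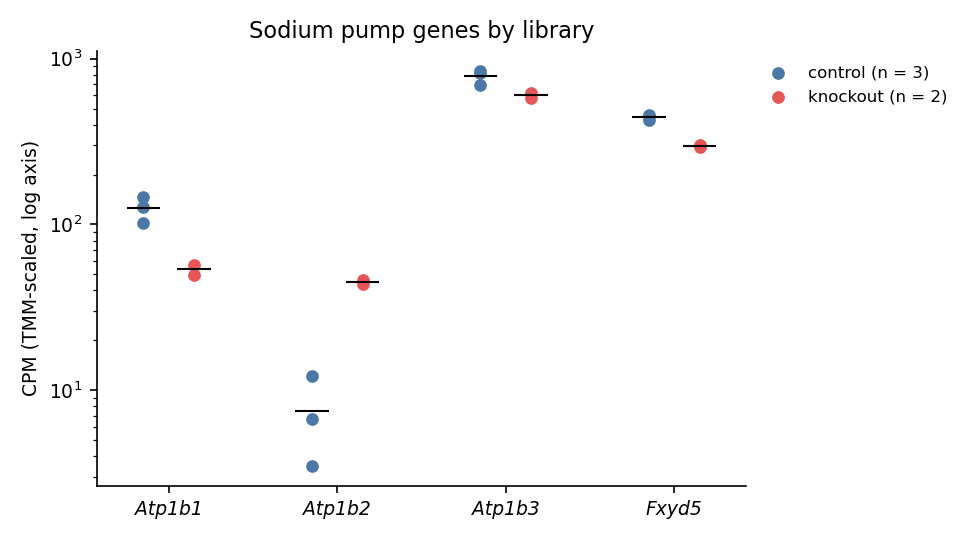
Normalised counts (CPM on TMM-scaled library sizes, log axis) of 4 genes of the sodium pump in control (blue, n = 3) and knockout (red, n = 2) libraries, with the group mean as a black line. Atp1b2 is higher in both knockout libraries (46.0 and 44.0 CPM) than in any control, and Atp1b1, chosen for its fall, is lower.

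Atp1b1 shares sequence with the neighbour gene Nme7, which overlaps it on the opposite strand. Of the 3028 stretches of 50 bases in its transcripts, 478 (15.8%) also occur in those of Nme7, and use of the strand in counting is not given in the sources used here. Nme7 had 9.67 and 11.1 CPM in control and knockout (log2 fold change 0.19, edgeR adjusted p = 0.84), far below Atp1b1. The other three genes shared no stretch of 50 bases with another annotated gene. Myo10 overlaps a processed pseudogene (Gm2862) and a transcript of uncertain class (Gm48996) on its own strand.

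Arhgap29 belongs to a family of GTPase-activating proteins that act on RhoA and related GTPases. Of 44 other genes of this family tested, 0 were called lower and 4 higher, against 0.111% and 2.47% of all genes. The median log2 fold change of the family was 0.037, and 8 more genes did not pass the filter. Arhgap23 had 3.21 CPM in controls and 36.9 CPM in the knockout (3.49, edgeR adjusted p = 0.017). Arhgap21 (6.08 and 19.0 CPM, 1.64), Arhgap19 (13.1 and 38.4 CPM, 1.55) and Arhgap11a (16.7 and 37.2 CPM, 1.15) were the others called higher, with edgeR adjusted p-values of 0.014, 0.009 and 0.029. Arhgap45, the family member with the highest level per kilobase in these T cells, had 457 RPKM in controls and 390 RPKM in the knockout and was not called (-0.23, edgeR adjusted p = 0.56).

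The genes that signal through Rap1 and RhoA were a second list around Arhgap29. Of 32 tested, 0 were called lower and 1 higher, with a median of -0.12. The 1 called was Ptpn13, which encodes a tyrosine phosphatase known to bind the Arhgap29 protein: it had 11.8, 6.75 and 11.5 CPM in controls and 28.7 and 37.6 CPM in the knockout (1.73, edgeR adjusted p = 0.029). Of the partners known from endothelium, Rasip1 was barely detected, with 0.634 and 0.575 CPM, and Radil had 0 counts in all 5 libraries, where a count of 0 allows up to 0.188 CPM in the shallowest library by counting error alone. The GTPase genes Rap1b (562 and 439 CPM, -0.35, edgeR adjusted p = 0.36) and Rhoa (435 and 369 CPM, -0.24, edgeR adjusted p = 0.47) were not called.

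Myo10 was compared with the other unconventional myosins. Of 19 tested, 0 were called lower and 1 higher, with a median of 0.38 and 4 below 0, and 4 more did not pass the filter. Myo1d, a short-tailed myosin that binds membranes, had 1.32, 3.54 and 2.38 CPM in the controls and 15.6 and 22.0 CPM in the knockout (2.96, edgeR adjusted p = 0.020). The class I myosin of blood cells Myo1g, the most abundant of the list per kilobase, had 43.7 and 39.8 RPKM and was not called (-0.14, edgeR adjusted p = 0.81). Among 22 other genes of filopodia and actin protrusions, 0 were called lower and 2 higher, with a median of -0.079. These were the formin genes Diaph3 (5.55 and 23.6 CPM, 2.08, edgeR adjusted p = 0.012) and Daam1 (18.7 and 38.6 CPM, 1.04, edgeR adjusted p = 0.023). Cdc42, the GTPase that starts filopodia, had 584 and 498 CPM (-0.23, edgeR adjusted p = 0.46), and the actin-bundling gene Fscn1 had 6.15 and 11.7 CPM (0.91, edgeR adjusted p = 0.50).

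5830411N06Rik belongs to 2 lists. In the scavenger receptor cysteine-rich family, 12 other genes were tested, of which 1 was called lower and 0 higher, with a median of -0.28. The gene called lower was Dmbt1, a secreted mucin-like member, at 2.32, 2.43 and 3.13 CPM in controls and 0.470 and 0.563 CPM in the knockout (-2.33, edgeR adjusted p = 0.037). Cd5 (360 and 288 CPM, -0.32, edgeR adjusted p = 0.43) and Cd6 (390 and 329 CPM, -0.24, edgeR adjusted p = 0.41) were not called. Cd163l1, the nearest relative of 5830411N06Rik by position, ends 16138 bases before it on the same strand and is also known from gamma-delta T cells. It had 16.7, 14.8 and 14.9 CPM in the controls and 5.40 and 12.5 CPM in the knockout. Both knockout libraries were below the controls but far apart from each other, and it was not called (-0.79, standard error 0.359, edgeR adjusted p = 0.35).

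Of 23 other genes known from gamma-delta T cells, 0 were called lower and 1 higher, with a median of -0.79 and 17 below 0. The median depended on which genes and libraries entered: it was -0.17 over the genes with at least 1 count in any library, -0.50 with counts divided by 2, -0.55 with the replicate number as a block, and -0.71 to -0.38 without single libraries (-0.38 without knockout replicate 1). The block called 1 gene lower, as did the fit without control replicate 3. The constant chain Tcrg-C1 of the gamma T cell receptor had 6.67 and 3.36 CPM (-0.99, edgeR adjusted p = 0.25), and the variable chain Tcrg-V4 had 2.22 and 1.01 CPM (-1.13, edgeR adjusted p = 0.20). The transcription factor genes Sox13 (1.77 and 0.703 CPM, -1.34) and Id3 (31.7 and 15.5 CPM, -1.03) and the kinase gene Blk (10.8 and 3.96 CPM, -1.45), which B cells also express, were not called, with edgeR adjusted p-values of 0.38, 0.21 and 0.45. Other gamma chains had values in the other direction, as Tcrg-C2 with 7.59 and 10.9 CPM (0.52, edgeR adjusted p = 0.36). The gene called higher was Maf, a transcription factor that other T cells express too, with 40.4 and 82.9 CPM (1.04, edgeR adjusted p = 0.019). The constant chain of the delta receptor, Trdc, was not analysed here.

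**Figure D3:**
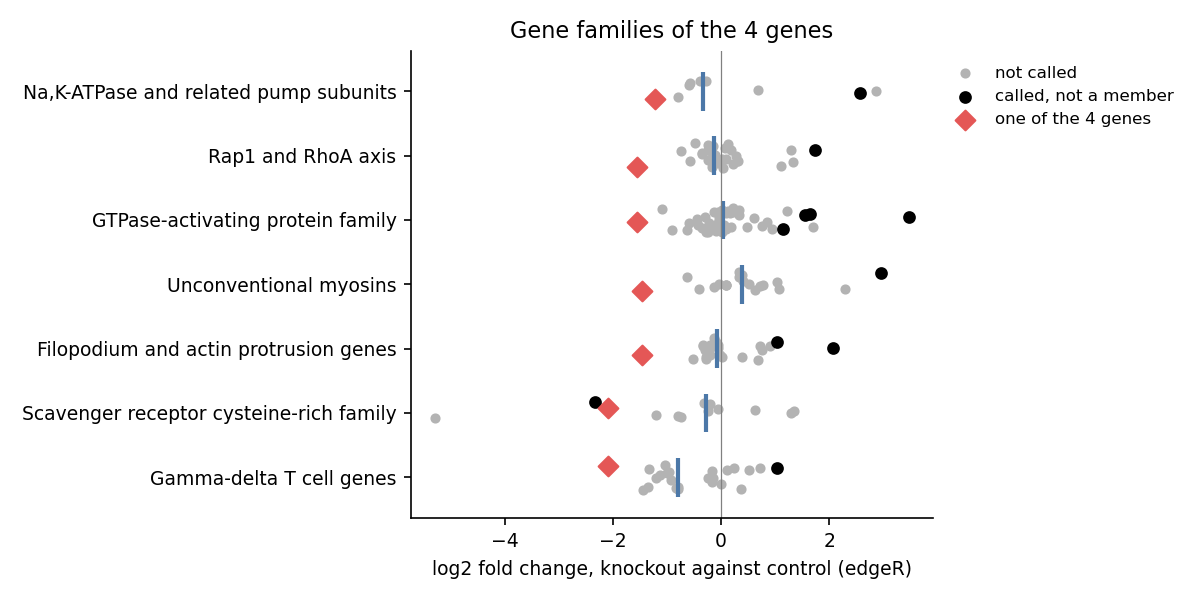
Log2 fold changes of knockout against control (edgeR) for the genes tested in 7 lists, with the 4 genes as red diamonds, other genes called lower or higher in black, genes not called in grey, and the median of each list without the 4 genes as a blue bar. Atp1b1, Arhgap29 and Myo10, chosen for their fall, lie at the low end of their lists. The calls among the other genes of those lists lie above 0, as did most calls over all genes tested (379 higher and 17 lower).

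The calls in these 7 lists shared the limits of the whole comparison: in the fits without control replicate 1, knockout replicate 1 or knockout replicate 2, each of them was lost. Dmbt1 was also lost with the replicate number as a block. DESeq2 called 0 other genes lower in the lists of the pump, Rap1 and RhoA, GTPase-activating proteins, myosins, filopodia and gamma-delta T cells, and 2 in that of scavenger receptors. At an unadjusted p under 0.05, edgeR had 2, 2, 4, 0, 4, 3 and 2 genes lower in these 7 lists, in the same order. Across the alternatives other than the T cell scaling, the list medians lay between -0.39 and -0.096 for the pump, -0.12 and -0.033 for Rap1 and RhoA, -0.011 and 0.11 for GTPase-activating proteins, 0.20 and 0.54 for myosins, -0.20 and -0.038 for filopodia and -0.56 and -0.19 for scavenger receptors. The call by which the 4 genes were chosen was lost likewise: 0 of the 4 met it in each of the fits without control replicate 1, knockout replicate 1 or knockout replicate 2, and 1 (5830411N06Rik) met it when libraries were scaled to the summed T cell markers. The values of the 4 stayed below 0 in all 13 alternatives that were run. As the genes were chosen for their fall and each control lay above each knockout library, this sign was largely fixed beforehand. The fits without 1 library gave log2 fold changes of -2.28 to -1.78 for 5830411N06Rik, -1.65 to -1.41 for Arhgap29, -1.63 to -1.32 for Myo10 and -1.36 to -1.09 for Atp1b1.

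**Figure D4:**
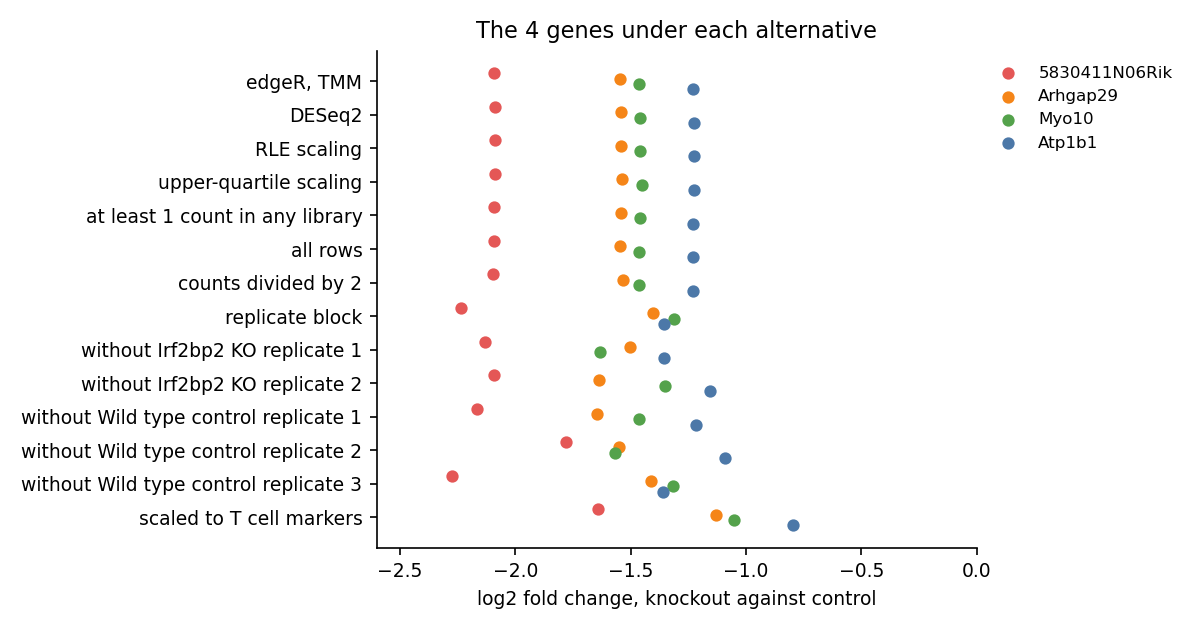
Log2 fold changes of knockout against control for the 4 genes (colours) under edgeR with TMM scaling and under each of 13 alternatives (rows). All points lie below 0, for genes chosen for their fall. Those scaled to the summed T cell markers lie closest to 0 for each gene, at -1.64, -1.13, -1.05 and -0.79 for 5830411N06Rik, Arhgap29, Myo10 and Atp1b1.

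The levels of markers of the sorted cells and of other cells are given beside these results. All 17 T cell markers were detected, 15 had values below 0 and 0 were called by edgeR or DESeq2 (median -0.43, 9 lower at an unadjusted p under 0.05), and their summed level was 8286 to 9700 CPM in the controls and 6406 to 6675 CPM in the knockout. Of 13 erythroid markers tested, all had values above 0 and 6 were called higher (median 2.63), with a summed level of 686 to 2349 CPM in the controls and 4884 to 6792 CPM in the knockout. When libraries were scaled to the summed T cell markers, the median of all genes moved to 0.40 and the falls shrank to -1.64 for 5830411N06Rik, -1.13 for Arhgap29, -1.05 for Myo10 and -0.79 for Atp1b1. With this scaling the list medians became 0.089 for the pump, 0.30 for Rap1 and RhoA, 0.33 for filopodia and 0.14 for the scavenger receptors, which turned their sign but stayed below the median of all genes. That of the gamma-delta list was -0.38. The part of these shifts in the levels of the 4 genes was not tested.

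Markers of other white blood cells were uneven between controls. The summed level of 11 B cell markers was highest in control replicate 2 (284 CPM) and lowest in control replicate 3 (37.7 CPM), as it was for 14 myeloid markers (465 and 52.4 CPM), and the knockout libraries lay between 43.9 and 138 CPM and between 123 and 180 CPM. 5830411N06Rik and Atp1b1 were highest and lowest in the same control libraries, and the part of these cells in their levels was not tested. Without control replicate 2, the values were -1.78 for 5830411N06Rik and -1.09 for Atp1b1. The summed levels were 164 to 221 CPM in controls and 171 to 179 CPM in the knockout for endothelial and stromal markers. Most of this sum was Pecam1 (182 and 164 CPM), which T cells also express; Cdh5, which defines endothelium, was at 0.359 and 0.209 CPM and Vwf at 1.17 and 4.83 CPM (edgeR adjusted p = 0.15). The sums were 135 to 171 and 156 to 273 CPM for NK cell markers and 414 to 1156 and 1142 to 1507 CPM for plasma cell markers. Those of platelet markers were 95.6 to 124 and 136 to 140 CPM, mostly Itgb3 (95.5 and 125 CPM), while the platelet gene Gp9 was at 0.119 and 1.25 CPM (3.18, edgeR adjusted p = 0.14) and Pf4 at 0.533 and 0.652 CPM. Of the 7 plasma cell markers 1 was called higher, and of the other 5 lists in this paragraph edgeR called 0 genes. At an unadjusted p under 0.05 these 5 lists held 3 lower and 3 higher genes, and DESeq2 called 2 lower (NK cell markers) and 1 higher.

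Genes of T cell subsets were counted in the same way. All 10 genes of naive T cells had values below 0, with a median of -0.47 and 0 called by edgeR or DESeq2 (5 lower at an unadjusted p under 0.05), among them Lef1 (559 and 362 CPM, -0.63, edgeR adjusted p = 0.051). Of 14 genes of memory and effector T cells, 4 were called higher and 0 lower (median 0.70). DESeq2 called 5 higher and 0 lower. At an unadjusted p under 0.05, edgeR had 7 higher and 1 lower. The largest rise was that of the granzyme gene Gzmk, with 5.36 and 56.9 CPM (3.39, edgeR adjusted p = 0.010). Values below 0 were found for 3 of the 14, among them Ly6c2 (205 and 108 CPM, -0.92, edgeR adjusted p = 0.14). The CD8 coreceptor genes Cd8a (616 and 406 CPM, -0.60) and Cd8b1 (484 and 252 CPM, -0.94) had edgeR adjusted p-values of 0.068 and 0.021 and did not reach the fold required, and of the 8 CD8 genes 1 was called higher and 0 lower (median -0.14). Of 6 CD4 genes 0 were called by edgeR or DESeq2 (median 0.16, 2 higher at an unadjusted p under 0.05), with Cd4 at 479 and 456 CPM. Of 8 genes of regulatory T cells 1 was called higher and 0 lower (median 0.45). Whether the falls of the 4 genes followed the mix of subsets was not tested.

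The J.gamma1 libraries gave a measurement that did not enter the choice. They held 26648204 to 31120236 counts, and IRF2BP2 fell from 202 ± 4.04 CPM (SD, n = 2) with shNC to 86.4 ± 10.5 CPM (SD, n = 2) with shIRF2BP2 (log2 fold change -1.22, edgeR adjusted p = 0.0023). Here 793 of 15819 genes (5.01%) were called lower and 864 (5.46%) higher, with a fold threshold of 0.5 on the log2 scale. Of the 3 human counterparts, only ATP1B1 was expressed enough to be tested. It measured 12.6 and 10.9 CPM with shNC (325 and 339 counts) and 10.3 and 6.72 CPM with shIRF2BP2 (299 and 198 counts). Both knockdown libraries lay below both controls, as did those of 28.7% of the genes tested here, and the knockdown libraries differed from each other by more than the gap between the groups. The means were 11.7 ± 1.15 CPM (SD, n = 2) and 8.49 ± 2.51 CPM (SD, n = 2), and ATP1B1 was not called (log2 fold change -0.47, standard error 0.248, edgeR adjusted p = 0.27). Without shIRF2BP2 replicate 2 the log2 fold change was -0.19, and without shIRF2BP2 replicate 1 it was -0.83. ATP1B1 lies on chromosome 1 of hg38 from 169105697 to 169310992 and, as in the mouse, overlaps NME7 on the opposite strand (28.5 and 26.6 CPM, edgeR adjusted p = 0.68).

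ARHGAP29 had 2 and 13 counts with shNC and 0 and 6 counts with shIRF2BP2, and MYO10 had 5 and 0 counts with shNC and 0 counts in both shIRF2BP2 libraries. Neither passed the filter, and no difference was detectable at this depth. In a fit of all genes with at least 1 count, their edgeR adjusted p-values were 0.67 and 0.52. No human counterpart of 5830411N06Rik was used.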

How the data were processed

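The authors used HISAT2 2.2.0 to align paired-end reads (mm10 and hg38, per the labels' processing notes) and StringTie to quantify genes. The deposited values are raw counts, as whole numbers for each gene and library. How coverage became counts, the annotation and the use of strand are not given in the sources used here.

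The 4 genes, the gene lists and the tests were chosen with earlier results of these data known. Rows were restricted to GENCODE M21 or v44 genes (42462 of 43432 mouse and 56105 of 64252 human rows), filtered with filterByExpr and normalised by TMM. Each table was then fitted with the group alone by edgeR 4.0.16 (quasi-likelihood, Benjamini-Hochberg adjustment, R 4.3.3). Calls had an adjusted p under 0.05 and changed by 1 (mouse) or 0.5 (J.gamma1) or more on the log2 scale. Standard errors are the size of the log2 fold change divided by the square root of edgeR's F statistic. They restate that test, and for the 4 genes they are no independent measure of precision. CPM use TMM-scaled library sizes, and list counts and medians leave out the 4 genes. Sums of markers are over all genes of a list with counts. Some items that met the naming rule are not reported here. Genes named are the 4, their human counterparts, list genes called or with a defining role, all genes called lower, and the 3 nearest profiles of each. Replicates differed by more than sampling noise (chi-square per gene and degree of freedom of at least 20.1), so each library counted once. Counting limits cover counting error only.

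DESeq2 1.42.0 was an alternative test. Other alternatives were upper-quartile and RLE scaling, 1 count in any library as the filter, all rows, counts divided by 2, a block for the replicate number, leaving out each library and, added after the data were seen, scaling to the summed T cell markers. The script was tested on simulated counts. Promoters are from RefSeq, and were found for all 4 genes (Python 3.11.15).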

Additional observations from a re-analysis of the deposited data

How the results depend on the processing

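The log2 fold changes of the 4 genes stayed below 0 and within 1 SD of their values in the 12 alternatives other than the T cell scaling, with ranges of -2.24 to -2.09, -1.55 to -1.40, -1.46 to -1.31 and -1.36 to -1.22 for 5830411N06Rik, Arhgap29, Myo10 and Atp1b1 apart from the fits without a library. The sign of these values was largely fixed by the choice of the genes and is no support for the fall. The numbers of genes called were less stable, and for the alternatives that follow the cause was not tested. In the mouse, DESeq2 called 66 lower and 735 higher, the replicate block called 35 lower, scaling to the T cell markers 9 lower and 885 higher, and the fits without 1 library 1 to 35 lower and 6 to 532 higher. In J.gamma1, keeping each gene with 1 count or more in a library, which tests more genes, gave 396 lower and 319 higher, and the fits without 1 library 419 to 1143 lower and 418 to 1608 higher. ATP1B1 kept its direction and was not called in any alternative (adjusted p of 0.095 to 0.78, log2 fold change of -0.83 to -0.19 without 1 library). Where 1 library was left in a group, it was assumed to vary like the other group. ARHGAP29 and MYO10 gave a value only without the filter.

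Libraries with the same replicate number did not deviate together in the mouse (correlation of deviations 0.15 and -0.16), and J.gamma1 has only 2 pairs (0.23 each). With 2 libraries in a group the deviations are exact opposites. The 2 values of J.gamma1 are therefore equal by construction, and those of the mouse are not independent. The number was not taken as a pairing, and its block changed no call of ATP1B1. Of 280 counts of calls in lists under the other alternatives of test, scaling, filter, rows and block, 268 stayed within 1.5 times, and of the 200 without 1 library, 159 did. Of the list medians, 13 of 140 moved by 0.1 or more under those alternatives and 43 of 100 without 1 library. Depth limits the 2 human genes with few counts, and 2 libraries against 3 leave 3 residual degrees of freedom.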

Other observations

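Of the other 12 genes called lower in the knockout mouse T cells, Irf2bp2 aside, 4 were tested in J.gamma1 under their human symbols, and 0 of them were called in either direction by edgeR (1, FBLN1, had an unadjusted p under 0.05). FBLN1, which encodes the extracellular matrix protein fibulin 1, had 3.98 CPM with shNC and 1.70 CPM with shIRF2BP2 (log2 fold change -1.23, edgeR adjusted p = 0.081). FAM174B (9.60 and 7.20 CPM, -0.42, edgeR adjusted p = 0.26) and TESC (21.4 and 16.6 CPM, -0.37, edgeR adjusted p = 0.19) had values below 0. RRAS2 had 28.2 and 33.4 CPM (0.25, edgeR adjusted p = 0.27), a value in the other direction than that of Rras2 in the mouse (-1.04); the difference between mouse and human was not tested.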
